A study of Mus musculus with 18 samples.

Results

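The genes described here are the protein-coding mouse genes whose symbols start with Kcn, without Kcnn1 to Kcnn4. They encode the pore-forming and accessory subunits of potassium channels other than the small-conductance and intermediate-conductance calcium-activated group. They were chosen by symbol alone, and 90 genes of 35150 in the table met the rule. They fall into 19 subfamilies by symbol.

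Potassium channels set the resting potential of muscle fibers and end each action potential. Inward rectifiers (Kcnj) hold the membrane near the potassium equilibrium potential, and some of them are gated by ATP. Voltage-gated channels (Kcna, Kcnb, Kcnc, Kcnd, Kcnh, Kcnq) repolarize the membrane, 2-pore channels (Kcnk) carry background current, and Kcne, Kcnab, Kcnip, Kcnmb, and the electrically silent Kcnf, Kcng, Kcns, and Kcnv subunits change how the pore subunits work. Skeletal muscle fibers are known to depolarize after they lose their nerve.

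RNA was sequenced from biopsies of whisker pad, taken with a 3 mm punch, in 9 adult mice after the right facial nerve was cut. Each mouse gave 1 sample from its denervated right pad and 1 from its sham left pad, which made 18 samples. The mice were sampled 1, 3, or 7 days after surgery, 3 mice each. The study used mice of both sexes, and the sex of these 9 is not given separately. The genotype of these mice is not given in the sources used here. Both sides had surgery, each mouse was its own control, and the lesion was always on the right, so an effect of the lesion and of the side cannot be told apart. The punch held skin and muscle together, and in such samples fewer cells of a type and less RNA per cell cannot be told apart.

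Levels are given as TPM, a unit of transcript abundance already scaled for transcript length, summed over the transcripts of a gene. A depth estimate from the low values gave 10200000 to 31700000 reads per sample. All 8 skeletal muscle marker genes and all 6 keratinocyte markers were above 0 on average, with the lowest means at 328 TPM for Pygm and 79.1 TPM for Trp63, so both tissues were present. Myog, a muscle transcription factor that follows denervation, was higher on the denervated side in 9 of 9 mice, which goes with the labels. At day 1 mouse 1 stood apart: its skeletal muscle markers were at 0.267 of the mean sample on the sham side and 0.412 on the denervated side, against 0.820 to 1.64 in the other 16 samples. Of the 35 potassium channel genes tested over all days, 14 had their lowest sham value in that mouse, and 23.5% of all genes did.

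Of the 90 genes, 51 reached 1 TPM in at least 1 sample, 36 did so on average, and 24 did so in all 18 samples. The other 39 never reached 1 TPM. The 2 silent 2-pore genes Kcnk12 and Kcnk15 were listed at 0 in all 18 samples, and 11 genes, these included, stayed below 0.1 TPM. The 90 genes together summed to 121 to 219 TPM per sample, and the 10 most abundant made up 50.8% of it. The sum was 160 ± 34.4 TPM on the sham side and 129 ± 5.18 TPM on the denervated side at day 1, 179 ± 17.3 and 149 ± 10.1 TPM at day 3, and 205 ± 12.4 and 186 ± 7.55 TPM at day 7 (SD, n = 3 mice).

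**Figure D1:**
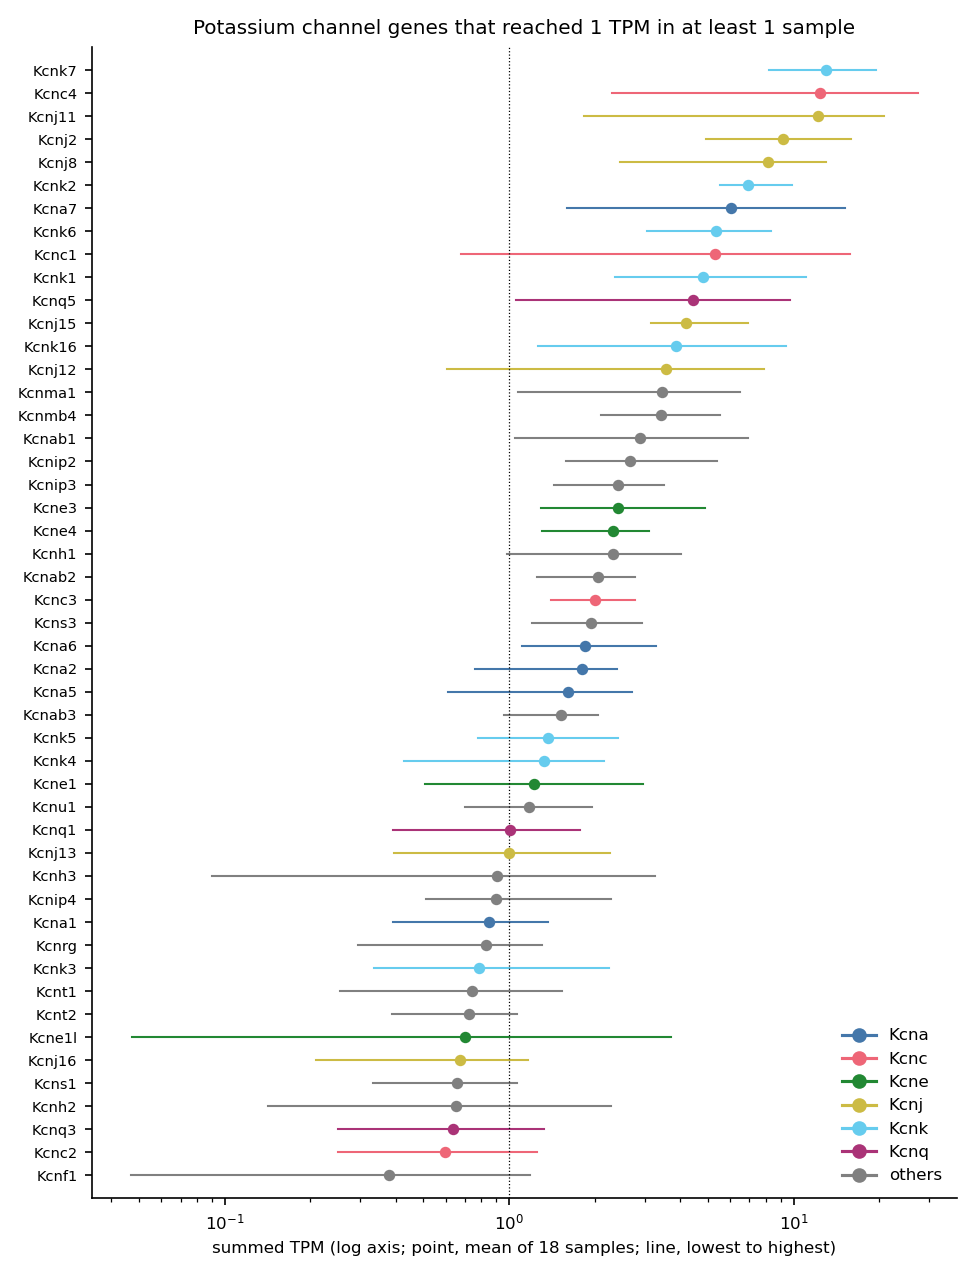
Mean summed TPM of potassium channel genes that reached 1 TPM, on a log axis, with lines from the lowest to the highest of 18 samples and colors for subfamilies. Kcnk7, Kcnc4, and Kcnj11 had means of 13, 12.4, and 12.2 TPM, and the dotted line marks 1 TPM.

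The highest means were those of Kcnk7 (13 TPM), a 2-pore subunit that gives no current on its own, Kcnc4 (12.4 TPM), a fast voltage-gated channel of skeletal muscle, and Kcnj11 (12.2 TPM), the pore of the ATP-gated channel of muscle. Other high means were those of Kcnj2 at 9.19 TPM, Kcnj8 at 8.12 TPM, Kcnk2 at 6.94 TPM, Kcna7 at 6.05 TPM, Kcnk6 at 5.36 TPM, and Kcnc1 at 5.30 TPM. Neighbors in the order of means mostly lay within each other's range over samples. The range was narrow for Kcnk2 (5.50 to 9.84 TPM) and wide for Kcnc1 (0.679 to 15.7 TPM) and Kcnc4 (2.31 to 27.3 TPM).

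The genes below 1 TPM in every sample included Kcna3, Kcna4, Kcna10, Kcnb2, Kcnd1 to Kcnd3, Kcne2, Kcng1 to Kcng4, Kcnh4 to Kcnh8, Kcnip1, Kcnj1, Kcnj3 to Kcnj6, Kcnj9, Kcnj10, Kcnj14, Kcnk9, Kcnk10, Kcnk12, Kcnk13, Kcnk15, Kcnk18, Kcnmb1 to Kcnmb3, Kcns2, Kcnv1, and Kcnv2. The Kcnd, Kcng, and Kcnv subfamilies had no gene at 1 TPM in any sample. Kcnd1 was the highest of its subfamily at 0.682 TPM, Kcng4 at 0.387 TPM, and Kcnv1 at 0.224 TPM. Kcnmb1, the accessory subunit of the large-conductance channel in smooth muscle, had a mean of 0.352 TPM. Kcna3, a channel of lymphocytes, had a mean of 0.0167 TPM.

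Some of these levels come mostly from transcripts that are annotated as not protein-coding. The share from protein-coding transcripts was 2.59% for Kcna6, 5.99% for Kcnab1, 7.49% for Kcnab3, and 46.6% for Kcnma1. For the other genes named here with a mean of at least 1 TPM it was 56.7% (Kcnmb4) or more, and it was 100% for Kcna7, Kcnj2, and Kcnk7. The library kit does not mark strand, so 26 genes whose exons overlap another annotated gene are less certain. The largest such overlap was in Kcnj13, where 49.1% of the exon bases lie opposite Gigyf2. Kcnj13 is outside the rule for named genes and was named after its values were seen.

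Kcna7, Kcnc1, and Kcnj2 were lower on the denervated side over all days, and no potassium channel gene was higher over all days. A gene was tested where at least 47% of the samples in the fit had 1 TPM or more, and the fit was made on log2(TPM + 0.5). Of 35 potassium channel genes that could be tested, 3 passed an adjusted p of 0.05 (limma, Benjamini-Hochberg adjustment over all genes tested), all 3 lower. The background was 3.1% of 14757 genes tested, with 1.18% lower and 1.92% higher. The median log2 fold change of the 35 genes was -0.14, with 8 above and 27 below 0, and that of all genes was 0.0072. In a fit that paired the 2 sides by mouse (the mouse as a block) 4 genes passed, and the added gene was Kcnj12, against 3.5% of all genes.

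Promoters are shown for the 3 genes that fell over all days, for Kcnj12, and for Kcne1l, which was higher at day 7. Kcnj12 did not pass in the main fit over all days and passed in 2 of 20 alternatives. In the main fits Kcne1l passed between the sides at day 7 only. RefSeq promoter windows of 300 bases, from 250 before to 50 after the start site, are those of build GRCm38.p6 and were found for 66 of the 90 genes. They are written 5′ to 3′ on the strand of the gene, with capitals marking each match to CANNTG, the E-box that muscle regulatory factors such as Myog bind, or to a MEF2-type motif, which is CTA and TAG with any 4 bases between them. Kcna7 lies at chr7:45405710-45406009 (plus strand), Kcnc1 at chr7:46396218-46396517 (plus strand), Kcnj2 at chr11:111065914-111066213 (plus strand), Kcnj12 at chr11:61065554-61065853 (plus strand), and Kcne1l at chrX:142306149-142306448 (minus strand).
Kcna7: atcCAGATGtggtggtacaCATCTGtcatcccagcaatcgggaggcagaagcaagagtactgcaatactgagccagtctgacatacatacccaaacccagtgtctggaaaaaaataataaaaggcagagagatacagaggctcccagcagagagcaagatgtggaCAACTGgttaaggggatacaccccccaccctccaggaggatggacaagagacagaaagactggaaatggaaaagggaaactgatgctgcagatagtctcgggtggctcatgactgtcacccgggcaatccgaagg
Kcnc1: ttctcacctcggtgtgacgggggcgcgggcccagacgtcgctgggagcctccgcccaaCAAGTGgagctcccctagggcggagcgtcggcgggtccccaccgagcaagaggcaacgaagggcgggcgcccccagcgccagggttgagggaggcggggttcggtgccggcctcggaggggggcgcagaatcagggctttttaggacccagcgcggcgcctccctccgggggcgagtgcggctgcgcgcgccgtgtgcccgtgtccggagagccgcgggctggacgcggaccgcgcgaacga
Kcnj2: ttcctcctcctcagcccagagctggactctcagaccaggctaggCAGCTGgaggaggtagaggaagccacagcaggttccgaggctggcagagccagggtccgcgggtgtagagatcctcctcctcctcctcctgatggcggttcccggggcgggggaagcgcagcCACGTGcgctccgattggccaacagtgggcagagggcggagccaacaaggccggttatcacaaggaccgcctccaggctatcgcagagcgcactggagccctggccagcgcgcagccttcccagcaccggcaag
Kcnj12: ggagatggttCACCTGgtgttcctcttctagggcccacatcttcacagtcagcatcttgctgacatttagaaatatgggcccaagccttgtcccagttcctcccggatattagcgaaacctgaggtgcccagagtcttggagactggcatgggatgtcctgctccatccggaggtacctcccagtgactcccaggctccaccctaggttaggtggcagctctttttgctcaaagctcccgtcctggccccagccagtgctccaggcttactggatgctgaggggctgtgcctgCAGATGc
Kcne1l: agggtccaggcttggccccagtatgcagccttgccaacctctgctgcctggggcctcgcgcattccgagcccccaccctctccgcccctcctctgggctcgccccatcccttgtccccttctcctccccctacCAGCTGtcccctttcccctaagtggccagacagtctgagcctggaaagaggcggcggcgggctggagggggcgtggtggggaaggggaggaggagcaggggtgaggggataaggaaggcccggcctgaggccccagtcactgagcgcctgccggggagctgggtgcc
The Kcna7 window had 3 E-boxes, Kcnj2 and Kcnj12 had 2 each, and Kcnc1 and Kcne1l had 1 each. Both strands were searched, and both motifs read the same on either strand. An E-box was in 72.3% of all 32851 RefSeq promoter windows, so its presence sets none of these genes apart. The form CAGCTG, which is 1 case of CANNTG, was in the windows of Kcnj2 and Kcne1l and in 16.3% of all windows. None of the 5 windows held the MEF2-type motif, which was in 3.69% of all windows, or TATAAA, which was in 13.6%. The GC content was 50.3% for Kcna7 and 74.7% for Kcnc1, with a median of 52.7% over all windows.

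Kcna7, a Shaker-type voltage-gated channel of skeletal and heart muscle, was lower on the denervated side in 9 of 9 mice. At day 1 the sham samples had 2.82, 7.85, and 12.5 TPM and the denervated samples 1.60, 2.84, and 2.21 TPM. At day 3 they had 10.3, 8.54, and 5.26 TPM against 2.30, 2.48, and 1.65 TPM, and at day 7 15.2, 14.3, and 9.81 TPM against 3.11, 3.05, and 3.15 TPM. The groups overlapped at day 1, where the sham side of mouse 1 was low, and did not overlap at days 3 and 7. Over all days the log2 fold change was -1.65 ± 0.21 SE, 3.15-fold lower (limma, adjusted p = 0.000293, and 0.000543 paired by mouse). By day it was -1.41 (adjusted p = 0.999), -1.66 (adjusted p = 0.0434), and -1.89 (adjusted p = 0.00673). The result over all days passed in 20 of 20 alternatives.

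Kcnc1, a fast voltage-gated channel known from fast-firing neurons, was also lower in 9 of 9 mice. At day 1 the sham samples had 1.53, 5.78, and 8.55 TPM against 0.917, 1.33, and 1.01 TPM on the denervated side. At day 3 they had 3.77, 8.22, and 6.45 TPM against 0.679, 1.90, and 2.11 TPM, and at day 7 15.7, 12, and 10.8 TPM against 4.91, 4.37, and 5.36 TPM. The groups did not overlap at any of the 3 days. Over all days the log2 fold change was -1.54 ± 0.24 SE, 2.92-fold lower (limma, adjusted p = 0.00171, and 0.00123 paired by mouse), and it passed in 20 of 20 alternatives. By day it was -1.63 (adjusted p = 0.999), -1.71 (adjusted p = 0.114, and 0.0265 paired by mouse), and -1.30 (adjusted p = 0.0170).

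Kcnj2, the main strong inward rectifier of skeletal muscle, was lower in 9 of 9 mice. At day 1 the sham samples had 6.34, 11.1, and 12.2 TPM against 4.91, 5.63, and 4.93 TPM. At day 3 they had 12, 12.8, and 10.5 TPM against 5.28, 5.45, and 5.91 TPM, and at day 7 15.9, 15.3, and 12 TPM against 9.10, 8.22, and 7.85 TPM. The groups did not overlap at any day, and the denervated samples were close together at days 1 and 3. Over all days the log2 fold change was -0.86 ± 0.10 SE, 1.82-fold lower (limma, adjusted p = 0.000205, and 0.00104 paired by mouse). By day it was -0.83 (adjusted p = 0.999), -1.02 (adjusted p = 0.0134), and -0.74 (adjusted p = 0.0783, and 0.0546 paired by mouse).

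Kcnj12, another strong inward rectifier that can share channels with Kcnj2, had 3.23 ± 2.04 TPM on the sham side and 1.62 ± 0.883 TPM on the denervated side at day 1, 4.34 ± 1.01 and 2.53 ± 0.523 TPM at day 3, and 6.20 ± 1.48 and 3.36 ± 0.730 TPM at day 7 (SD, n = 3 mice). It was lower in 9 of 9 mice, and the groups overlapped only at day 1. Over all days the log2 fold change was -0.73 ± 0.23 SE (limma, adjusted p = 0.0983). It passed when paired by mouse (adjusted p = 0.00315) and without mouse 1 of day 1 (-0.76, adjusted p = 0.00180), and over 20 alternatives the adjusted p ranged from 0.00180 to 0.671.

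**Figure D2:**
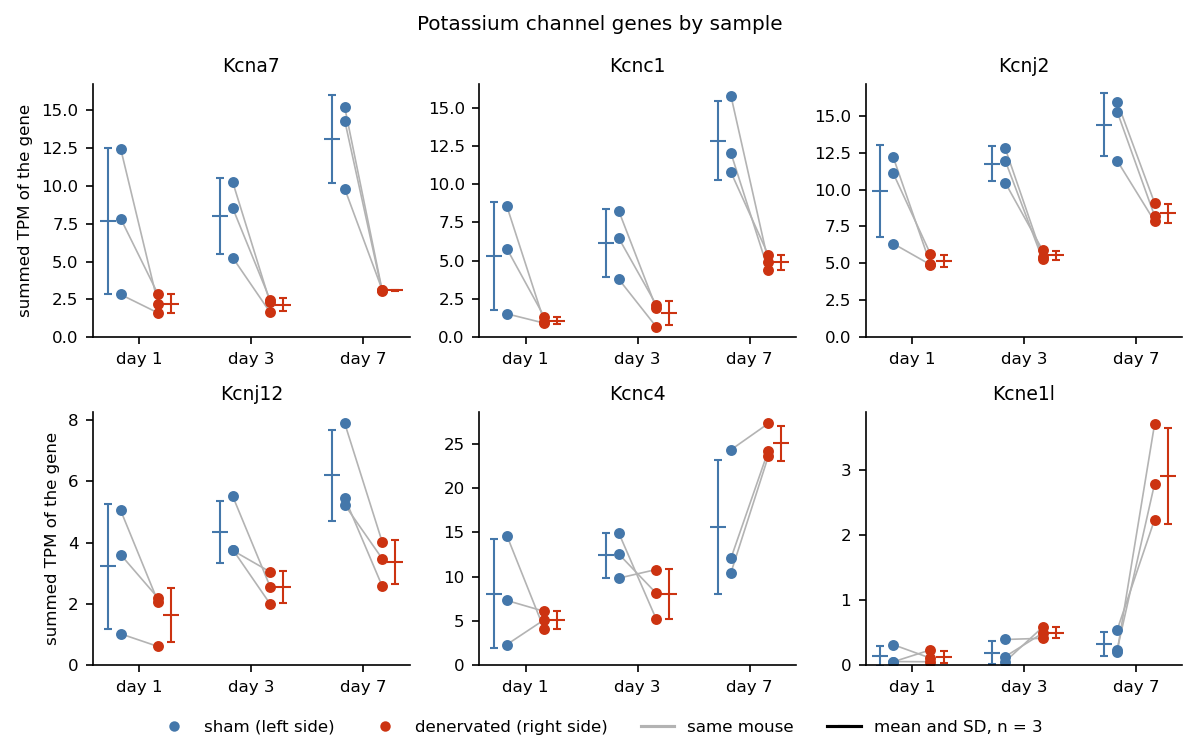
Summed TPM of 6 potassium channel genes in each sample, by day, with sham samples in blue, denervated samples in red, gray lines joining the sides of a mouse, and bars for the mean and SD of 3 mice. Kcna7, Kcnc1, Kcnj2, and Kcnj12 were lower on the denervated side in 9 of 9 mice, and Kcnc4 and Kcne1l were higher there in 3 of 3 mice at day 7.

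Values of skeletal muscle markers are given beside these genes because muscle fibers hold several of them. The summed level of the 8 markers was 15316 to 17364 TPM on the sham side and 13763 to 17743 TPM on the denervated side at day 3, and 20945 to 24678 TPM and 19654 to 21104 TPM at day 7. Of the 8, 1 was called lower at day 3 and 2 at day 7, with median log2 fold changes of -0.17 and -0.53 (limma). When all values were divided by the muscle markers of their sample, the median of all genes moved to 0.22 over all days, and to 0.09, 0.19, and 0.39 at days 1, 3, and 7. On that scale Kcna7 was at -1.44 over all days and Kcnc1 at -1.35, both with the call kept (limma, adjusted p = 0.000230 and 0.00115), and Kcnj2 was at -0.64 (adjusted p = 0.463, and 0.0114 paired by mouse). Markers of other cell types moved as well. At day 7 the summed Schwann cell markers were lower on the denervated side in 3 of 3 mice, 317 to 588 TPM on the sham side and 233 to 254 TPM on the denervated side, with a median log2 fold change of -0.76 over 5 genes. Those of smooth muscle and pericytes were lower in 3 of 3 mice at days 3 and 7 (medians of -0.30 and -0.29 over 6 genes). The summed markers of macrophages, keratinocytes, fibroblasts, and adipocytes were higher in 3 of 3 mice at day 7 (medians of 0.84, 0.50, 0.48, and 0.29 over 5, 6, 4, and 3 genes). None of these genes passed at any day (limma). The summed gland markers were lower in 3 of 3 mice at days 3 and 7, and 1 of the 2 that could be tested, Bpifa2, was called lower at day 7, while Muc5b had a mean of 0.0186 TPM. The summed neuron markers were lower in 3 of 3 mice at day 3, with Nefl at a mean of 0.0422 TPM. The sums of the endothelial, melanocyte, and T cell markers did not go one way in all mice at day 3 or day 7. The part of these cell types in the differences of potassium channel genes was not tested.

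At day 1 no potassium channel gene passed. Of the 35 tested, 0 had an adjusted p under 0.05 and 7 had a p under 0.05 before adjustment (limma), and over all 14776 genes tested 0 passed (0.0%) and 634 had a p under 0.05 before adjustment. The groups did not overlap for 7 genes lower on the denervated side, Kcna2, Kcna6, Kcnab2, Kcnc1, Kcnj2, Kcnma1, and Kcnrg, against 3.95% of all genes tested. Kcnrg, a cytoplasmic regulator of channel assembly, had 1 TPM or more at day 1 in the sham samples only and so could be tested only through that side (limma, log2 fold change -0.59, adjusted p = 0.999). Its lack of overlap follows from how it entered the test, so its place among the 7 is no support. The groups did not overlap for 1 gene that was higher, Kcnh1, against 5.61% of all genes. Kcnh1, an ether-a-go-go channel known from fusing myoblasts, had 2.86, 1.86, and 1.75 TPM on the sham side and 3.45, 4.03, and 3.83 TPM on the denervated side. Its log2 fold change was 0.71 ± 0.20 SE (limma, adjusted p = 0.999).

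Kcnma1, the pore of the large-conductance calcium-activated channel, had 1.99, 3.43, and 3.34 TPM on the sham side at day 1 and 1.94, 1.17, and 1.08 TPM on the denervated side. The values of mouse 1 were nearly the same on both sides. The log2 fold change was -0.85 ± 0.28 SE at day 1, 0.05 ± 0.16 SE at day 3, and -0.19 ± 0.18 SE at day 7, and none passed (limma, adjusted p = 0.999, 0.937, and 0.750).

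At day 3 Kcna7 and Kcnj2 were lower on the denervated side, 2 of 37 potassium channel genes tested, against 1.45% of 14943 genes tested, with 0.442% lower. Paired by mouse, 4 of the 37 passed, among them Kcna7 (adjusted p = 0.0238), Kcnj2 (0.0420), and Kcnc1 (0.0265), against 1.45% of all genes (limma). The calls at day 3 rest on all 3 mice. Without replicate 1, 2, or 3 the adjusted p (limma) was 0.169, 0.409, and 0.113 for Kcna7 and 0.108, 0.287, and 0.131 for Kcnj2. No potassium channel gene passed in these fits, against 0.881%, 0.0467%, and 0.0% of all genes. On the scale of the muscle markers neither of them passed (limma, adjusted p = 0.0596 for Kcna7 and 0.0666 for Kcnj2). Paired by mouse on that scale both passed, among 4 of 36 potassium channel genes, against 4.41% of all genes.

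Kcnf1, a silent subunit that joins other voltage-gated pores, stayed under the minimum for testing at all days. It had 0.0621, 0.274, and 0.0767 TPM on the sham side and 0.365, 0.913, and 1.15 TPM on the denervated side at day 3, and 0.379, 0.0880, and 0.246 TPM against 1.19, 0.640, and 0.925 TPM at day 7. At day 1 all 6 samples were between 0.0470 and 0.117 TPM. Denervated values were above sham values in every mouse at days 3 and 7.

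Other groups that did not overlap at day 3 were mostly lower on the denervated side. In all, 8 tested genes were lower without overlap, Kcna7, Kcnc1, Kcne1, Kcnip2, Kcnj12, Kcnj2, Kcnk1, and Kcnk6, and 1 was higher, against 9.82% and 11.7% of all genes. Kcnk1 and Kcnk6, both weakly inward rectifying 2-pore channels, are named here after their values were seen. Kcne1, an accessory subunit known from heart and inner ear, had 2.13 ± 0.717 TPM on the sham side and 0.762 ± 0.287 TPM on the denervated side (SD, n = 3 mice), so its log2 fold change was -1.05 ± 0.29 SE (limma, adjusted p = 0.173).

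At day 7 Kcna7 and Kcnc1 were lower and Kcne1l was higher, 3 of 40 potassium channel genes tested, against 1.53% of 15081 genes tested. Kcne1l is in both counts only because its denervated samples reached 1 TPM. The shares by direction over all genes were 0.511% lower and 1.01% higher. The same 3 genes passed when paired by mouse (limma, adjusted p = 0.0121 for Kcna7, 0.0263 for Kcnc1, and 0.0405 for Kcne1l), against 328 of 15081 genes in that fit. Without replicate 1 or 2 none passed, and without replicate 3 only Kcna7 did. Of all genes tested, 0.0065%, 0.0324%, and 0.84% passed without replicate 1, 2, and 3, so few genes of any kind kept a call there. The adjusted p without a mouse was 0.0191 to 0.186 for Kcna7, 0.0550 to 0.283 for Kcnc1, and 0.114 to 0.388 for Kcne1l.

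Kcne1l, also known as Kcne5, encodes a small membrane protein that lowers the current of some voltage-gated channels. At day 7 the sham samples had 0.540, 0.235, and 0.205 TPM and the denervated samples 2.24, 2.79, and 3.70 TPM. At day 3 they had 0.0518, 0.391, and 0.128 TPM against 0.579, 0.410, and 0.488 TPM, and at day 1 all 6 samples were at or below 0.313 TPM. The groups overlapped at day 1 and did not overlap at days 3 and 7. At day 3 the gene was under the minimum, and the nearest values, 0.391 TPM (sham) and 0.410 TPM (denervated), were too close to tell apart. A single read of a 4 kb transcript was worth up to 0.0288 TPM. The log2 fold change at day 7 was 2.04 ± 0.29 SE, 4.13-fold higher on the log2(TPM + 0.5) scale (limma, adjusted p = 0.0209). The gene passed the minimum at day 7 only through the denervated samples, the side where it was high. With no minimum the adjusted p was 0.0439 (limma), but that fit used the same samples and is no separate support. When a mouse of day 7 was left out, it did not pass (limma, adjusted p = 0.114 to 0.388). The level is low, about 5 reads in the median sample by the depth estimate.

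**Figure D3:**
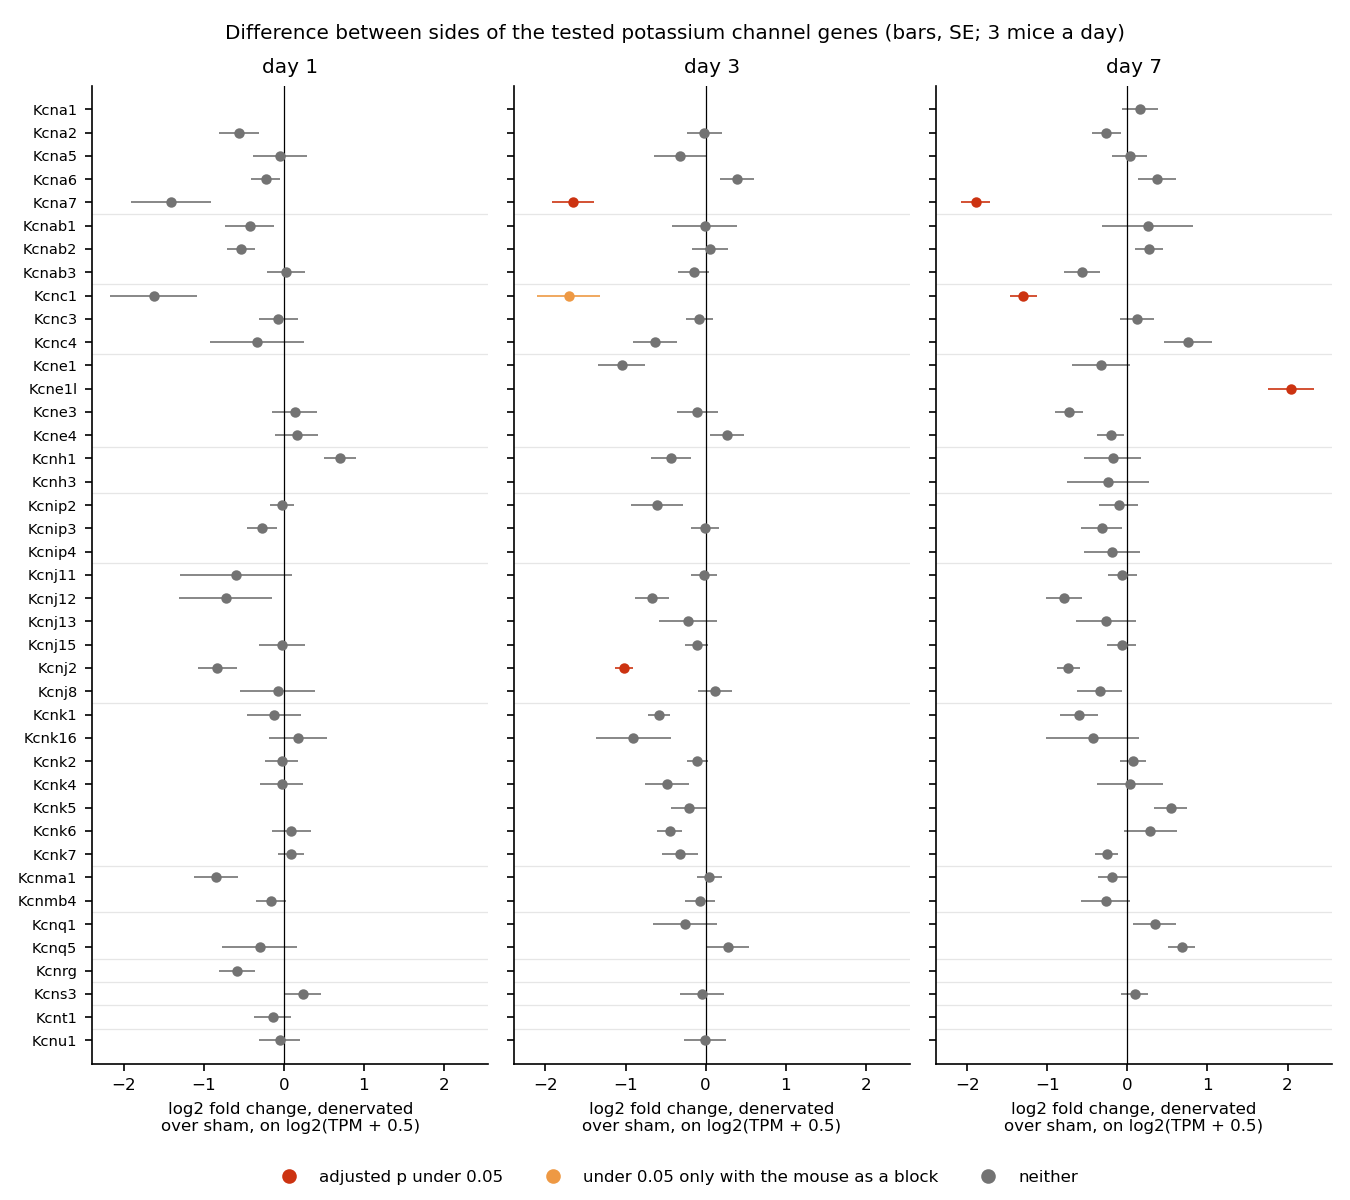
Log2 fold change of the denervated over the sham side, on log2(TPM + 0.5), for potassium channel genes tested at days 1, 3, and 7, with bars for the SE and lines between subfamilies. Red points had an adjusted p under 0.05 (0, 2, and 3 genes), and orange points only paired by mouse (Kcnc1 at day 3).

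Of the 40 genes tested at day 7, 8 were lower without overlap between the groups, Kcna2, Kcna7, Kcnab3, Kcnc1, Kcne3, Kcne4, Kcnj12, and Kcnj2, and 5 were higher, Kcnab2, Kcne1l, Kcnk5, and Kcnq5 among them, against 7.06% and 10.6% of all genes. The lack of overlap for Kcne1l follows from how it entered the test, with denervated samples alone at 1 TPM or more. Kcnab3, a cytoplasmic beta subunit, is outside the naming rule. Kcnq5, a slow voltage-gated channel of muscle and neurons, had 5.80, 5.48, and 4.35 TPM on the sham side and 9.12, 7.08, and 9.74 TPM on the denervated side. Its log2 fold change of 0.68 ± 0.17 SE did not pass (limma, adjusted p = 0.160). Kcne3, the partner of Kcnc4 in skeletal muscle, had 4.89, 3.76, and 3.69 TPM against 2.50, 2.19, and 2.12 TPM, a log2 fold change of -0.73 ± 0.17 SE that did not pass either (adjusted p = 0.132).

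Kcnc4 had the largest rise at day 7 after Kcne1l among the tested potassium channel genes that were higher in all 3 mice. The sham samples had 24.3, 12.1, and 10.4 TPM and the denervated samples 27.3, 24.2, and 23.6 TPM. The groups overlapped through the sham side of replicate 1. The log2 fold change was 0.76 ± 0.30 SE (limma, adjusted p = 0.379), after -0.64 ± 0.28 SE at day 3 (adjusted p = 0.358).

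On the scale of the muscle markers, 6 of 34 potassium channel genes passed at day 7, 4 higher (Kcnc4, Kcne1l, and Kcnq5 among them) and 2 lower (Kcna7 and Kcnc1). Kcne1l could be tested at day 7 only through its denervated samples, so its call here is no separate support. On that scale 1418 of 14425 genes passed, 9.83% of those tested, and 1350 of these were higher, where 153 of 230 were higher on the deposited scale. With the median of all genes at 0.39, Kcnc4 was at 1.12 and Kcnq5 at 1.01 (limma, adjusted p = 0.0469 and 0.0188).

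The tests of a difference between days gave 0 of 35 potassium channel genes for each of the 3 contrasts of the denervation effect. The background was 18 of 14757 genes for day 3 against day 1 (0.122%), 24 for day 7 against day 1 (0.163%, with 0.129% higher and 0.0339% lower), and 0 for day 7 against day 3 (0.0%). At an unadjusted p under 0.05 there were 6, 6, and 1 potassium channel genes, against 9.22%, 7.14%, and 6.86% of all genes (limma). Paired by mouse, 1, 0, and 0 passed in the 3 contrasts, against 0.461%, 0.142%, and 0.00678% of all genes. Without mouse 1 of day 1, Kcnj11 and Kcnma1 passed for day 3 against day 1, with differences of 1.34 and 1.31 (adjusted p = 0.0491 and 0.0289), and 148 of 14772 genes passed in that fit (1.0%). For Kcna7, Kcnc1, Kcnj2, and Kcnj12 the differences between days were between -0.48 and 0.41 on the log2 scale and none passed.

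By subfamily, the Kcna, Kcnc, Kcng, Kcnip, Kcnj, Kcnk, and Kcnt sums were lower on the denervated side at day 3 in 3 of 3 mice. The Kcna sum was 13.9 ± 3.57 TPM on the sham side and 8.20 ± 0.930 TPM on the denervated side at day 3, and 21.1 ± 2.95 and 11.2 ± 0.369 TPM at day 7 (SD, n = 3 mice). It was lower on the denervated side in 9 of 9 mice, and Kcna7 made up 48.8% of it. Of its 8 genes 5 reached 1 TPM, and 4 were tested at day 3, with 1 lower and 0 higher. Kcna2, a channel of myelinated axons, showed a log2 fold change of -0.02 ± 0.22 SE at day 3 and -0.26 ± 0.18 SE at day 7. Kcna1, its axonal partner, had a mean of 0.848 TPM, and Kcna5, a channel of heart and vessels, 1.61 TPM.

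The Kcnj sum was 45.0 ± 6.61 TPM on the sham side and 37.1 ± 1.82 TPM on the denervated side at day 3, and 53.6 ± 3.62 and 41.4 ± 3.31 TPM at day 7 (SD, n = 3 mice). Of its 15 genes 7 reached 1 TPM. Kcnj11 had 13.4 ± 2.42 and 13.1 ± 1.55 TPM at day 3 and 16.7 ± 3.88 and 15.7 ± 1.25 TPM at day 7, and its log2 fold changes were -0.02 ± 0.16 SE and -0.07 ± 0.18 SE (limma, adjusted p = 0.974 and 0.921). Kcnj8, the pore of the ATP-gated channel of vessels, had log2 fold changes of 0.12 ± 0.21 SE and -0.34 ± 0.28 SE. Within this subfamily the strong rectifiers Kcnj2 and Kcnj12 had the largest falls at all 3 days.

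**Figure D4:**
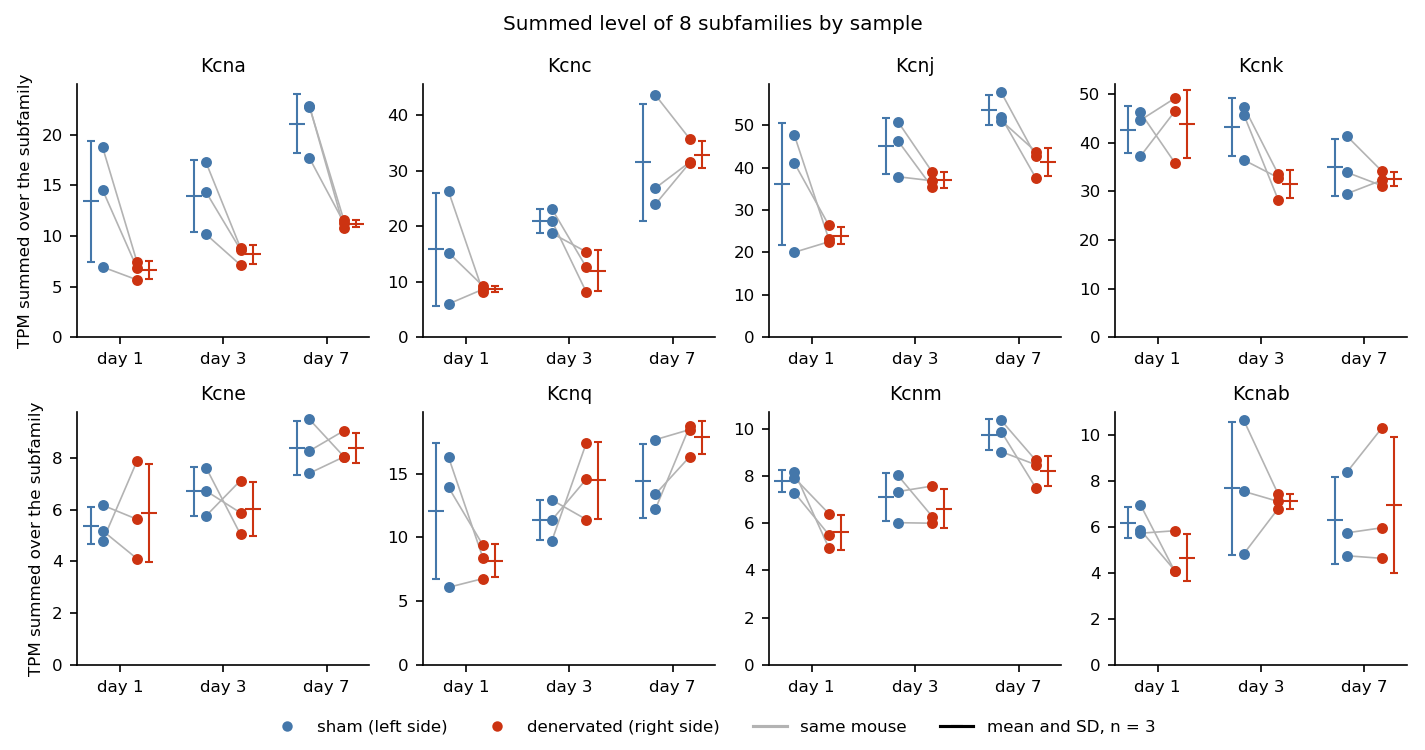
TPM summed over the genes of 8 subfamilies in each sample, by day, with sham samples in blue, denervated samples in red, gray lines joining the sides of a mouse, and bars for the mean and SD of 3 mice. The Kcna sum was lower on the denervated side in 9 of 9 mice, and the Kcnj sum was lower there in 3 of 3 mice at days 3 and 7.

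The Kcnc sum did not keep its direction between days 3 and 7. It was 20.9 ± 2.19 TPM on the sham side and 12 ± 3.68 TPM on the denervated side at day 3, and 31.5 ± 10.6 and 32.9 ± 2.43 TPM at day 7 (SD, n = 3 mice). Kcnc4 made up 61.0% of it. All 3 Kcnc genes tested at day 3 had a log2 fold change below 0. At day 7 that of Kcnc1 was below 0 and that of Kcnc4 above 0.

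The Kcnk sum was 42.7 ± 4.82 and 43.9 ± 7.03 TPM at day 1, 43.3 ± 5.93 and 31.6 ± 2.87 TPM at day 3, and 34.9 ± 5.95 and 32.6 ± 1.53 TPM at day 7, sham first (SD, n = 3 mice). None of the 14 Kcnk genes passed at any day. Kcnk7 had log2 fold changes of 0.09, -0.32, and -0.26, and Kcnk2, a stretch-gated 2-pore channel, -0.03, -0.10, and 0.07 at days 1, 3, and 7. The intervals for Kcnk2 reached from -0.41 to 0.21 at day 3 and from -0.32 to 0.46 at day 7. Kcnk16 had a mean of 3.86 TPM and a log2 fold change of -0.90 ± 0.47 SE at day 3 (limma, adjusted p = 0.441). Kcnk5, an alkaline-activated 2-pore channel, had 1.25 ± 0.116 and 2.05 ± 0.313 TPM at day 7, a log2 fold change of 0.54 ± 0.20 SE (adjusted p = 0.358).

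The Kcnq sum was 12.1 ± 5.34 and 8.18 ± 1.32 TPM at day 1, 11.4 ± 1.59 and 14.5 ± 3.02 TPM at day 3, and 14.4 ± 2.87 and 17.9 ± 1.31 TPM at day 7, and none of its 5 genes passed. The Kcne sum was nearly the same on both sides, 8.39 ± 1.04 and 8.38 ± 0.579 TPM at day 7, with Kcne1l higher and Kcne3 and Kcne4 lower. Kcne4, which lowers current through Kcna channels, showed a log2 fold change of -0.21 ± 0.17 SE at day 7 (adjusted p = 0.692).

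The remaining subfamilies held few expressed genes. The 3 Kcnab genes had means of 2.89 TPM (Kcnab1), 2.06 TPM (Kcnab2), and 1.53 TPM (Kcnab3), and none passed at any day. Kcnip2 and Kcnip3, calcium sensors that join Kcnd channels, had means of 2.67 and 2.41 TPM, while the 3 Kcnd genes themselves summed to 0.783 to 1.75 TPM. Kcnmb4, the beta subunit of large-conductance channels in brain, had a mean of 3.42 TPM and a log2 fold change of -0.27 ± 0.30 SE at day 7 (limma, adjusted p = 0.781). Kcns3, a silent subunit, had 1.93 TPM, Kcnu1, a channel of sperm, 1.17 TPM, Kcnt1, a sodium-activated channel, 0.743 TPM, and Kcnh2, a heart channel, 0.651 TPM. Kcnh2 had 0.817 and 1.19 TPM on the sham and denervated sides at day 7 and was under the minimum at all days.

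On the denervated side levels also differed between days, in different mice. From day 1 to day 7, 13 of 35 potassium channel genes passed, 10 higher and 3 lower, against 20.8% of 14757 genes tested, 12.8% higher and 8.04% lower. From day 1 to day 3, 5 passed, 4 higher (Kcna6, Kcnab2, and Kcnma1 among them) and 1 lower (Kcnh1), against 10.3% of all genes, 7.31% higher and 3.0% lower. From day 3 to day 7, 0 passed, against 0.298% of all genes, 0.136% higher, and 7 had a p under 0.05 before adjustment, against 12.4% of all genes (limma). On the sham side 0 passed between days 3 and 1, days 7 and 3, and days 7 and 1, against 0.0%, 0.0%, and 0.976% (0.773% higher) of all genes. There 1, 4, and 12 of 35 had an unadjusted p under 0.05, which is 2.86%, 11.4%, and 34.3%, against 13.4%, 13.1%, and 18.2% of all genes. Without replicate 3 of day 1, 2 passed between days 7 and 1 on the sham side, Kcnc1 among them, both higher at day 7, against 2.38% of all genes. Without replicate 1 of day 1, 3 passed between days 7 and 3 on the denervated side, Kcnc1, Kcnc4, and Kcnj2, all higher at day 7, against 1.49% of all genes.

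Among the 10 higher at day 7 were Kcnc4, from 5.07 ± 1.02 to 25.1 ± 1.98 TPM (log2 fold change 2.21 ± 0.46 SE, limma, adjusted p = 0.00518), Kcnq5, from 2.01 ± 0.835 to 8.65 ± 1.39 TPM (1.91 ± 0.35 SE, adjusted p = 0.00254), and Kcnma1, from 1.39 ± 0.473 to 4.81 ± 0.689 TPM (1.51 ± 0.21 SE, adjusted p = 0.000572; SD, n = 3 mice). Kcnc1, Kcnj2, Kcnj11, Kcna6, Kcnab2, and Kcnk5 were also among them. Kcnk7, Kcnh1, and Kcnk1 were lower. The skeletal muscle markers moved with these differences, from 6251 to 13992 TPM in sum at day 1 to 19654 to 21104 TPM at day 7. On the scale of the muscle markers, where the median of all genes moved by -0.75, 0 of 34 passed, against 0.88% of all genes, with 11 at an unadjusted p under 0.05, against 25.4% of all genes, and Kcnj2 and Kcnab2 changed sign. Without mouse 1 of day 1, 11 genes passed, against 21.1% of all genes, and without replicate 1 or 2 of day 7, 8 passed (10.4% and 18.5%). Without replicate 1, 2, or 3 of day 3, 14, 12, and 14 passed (20.7%, 17.6%, and 18.7%). From day 1 to day 3 the count of 5 fell to 1 without replicate 2 or 3 of day 1, against 4.85% and 4.8% of all genes. It fell to 0 without replicate 2 of day 3 (2.84%) and to 3 without replicate 3 of day 3 (4.82%). On the scale of the muscle markers it was 0 (0.348%).

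**Figure D5:**
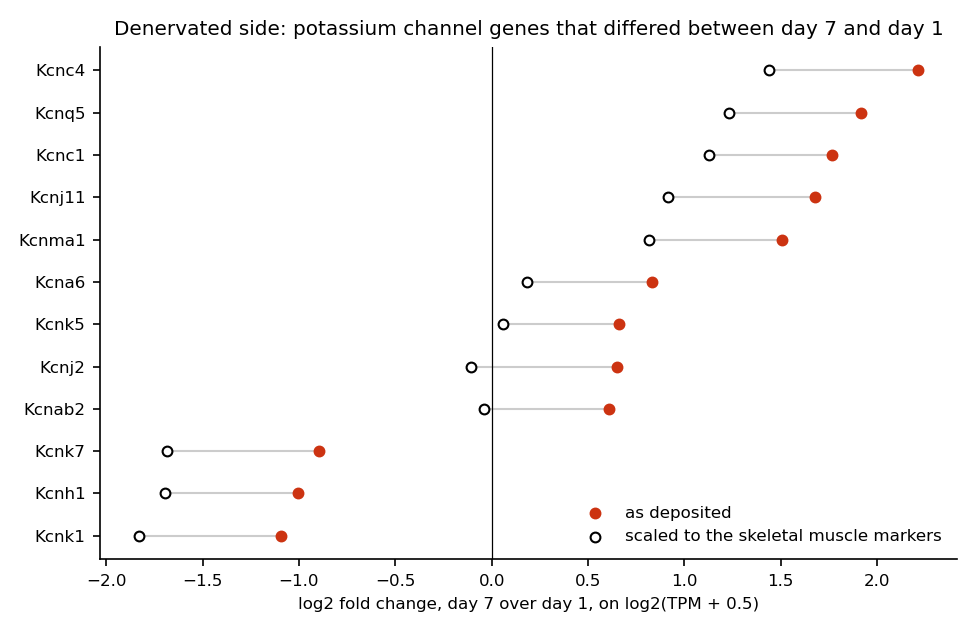
Log2 fold change of day 7 over day 1 on the denervated side, on log2(TPM + 0.5), for potassium channel genes that passed, on the deposited scale (red) and divided by the skeletal muscle markers (open). Each gene moved to the left by the second scaling, and 0 of them passed on it.

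Single transcripts were tested as well, because TPM was deposited per transcript. Of 39, 47, and 44 potassium channel transcripts tested at days 1, 3, and 7, 0, 0, and 1 passed, against 0.0%, 0.3%, and 0.387% of all transcripts, with 6, 9, and 10 at an unadjusted p under 0.05 (limma). The transcript that passed was that of Kcna7 at day 7, lower on the denervated side (adjusted p = 0.0356, and 0.138 paired by mouse).

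The genes sit in several clusters that the rule did not use. Kcna3, Kcna2, and Kcna10 lie side by side at chr3:107036169-107195721 with Kcnc4 at chr3:107438303-107459552, and Kcna5, Kcna1, and Kcna6 at chr6:126532551-126740674 (GRCm38). Kcnj11 and Kcnc1 are close on chromosome 7, from 46093953 to 46438704, yet Kcnj11 showed a log2 fold change of -0.07 at day 7 and Kcnc1 -1.30. In the chromosome 3 cluster Kcna2 had a mean of 1.80 TPM and Kcna3 of 0.0167 TPM.

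A list of 20 genes that work with potassium channels or set the potassium gradient, none of them members, was read beside these results. The list was chosen with earlier results of these data known, so the counts below are no test of it. Over all days 11 of the 20 genes could be tested and 3 passed, against the 3.1% of all genes given above, all lower on the denervated side. They were Clcn1, the chloride channel of the resting fiber (log2 fold change -1.30, limma, adjusted p = 0.00563), Atp1b1, a sodium pump beta subunit (-1.04, adjusted p = 0.0159), and Lrrc52, a gamma subunit of large-conductance channels (-1.67, adjusted p = 0.000457). At day 1, 0 of 9 passed (0.0% of all genes), with 2 at a p under 0.05 before adjustment, against 4.29% of all genes. At day 3, 2 of 11 passed, Atp1b1 and Lrrc52 (adjusted p = 0.0434 and 0.0464, and 0.0549 and 0.0659 paired by mouse), against 1.45% of all genes, and at day 7, 1 of 11 passed, Lrrc38, another gamma subunit (-1.61, adjusted p = 0.0368), against 1.53%. Paired by mouse, 4, 0, 1, and 3 passed over all days and at days 1, 3, and 7, against 3.5%, 0.0%, and 1.45% of all genes and, at day 7, 328 of 15081. Abcc9, the partner of Kcnj8 and Kcnj11 in ATP-gated channels, had log2 fold changes of -0.39, 0.52, and 0.52 at days 1, 3, and 7, and none passed (adjusted p = 0.999, 0.304, and 0.114).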

How the data were processed

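The whisker pad RNA was sequenced as unstranded libraries from 18 samples, both sides of 9 mice. Per the submitters' notes and methods, the authors called bases with bcl2fastq 2.17.1.14, dropped duplicate reads by ParDRe, cleaned reads by Fastp, and quantified Ensembl GRCm38 cDNA with kallisto 0.43.1 and sleuth. The deposited signal is TPM per transcript after normalization between samples by the authors: sample sums were 833186 to 1143839, not 1000000, so values are a normalized signal and not plain TPM. A count test was therefore not used.

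Transcripts were matched to GENCODE annotation (98.5% of 113194) and TPM was summed per gene. Genes with 1 TPM in at least 47% of samples in a fit were tested on log2(TPM + 0.5) with limma 3.58.1 in R 4.3.3 (empirical Bayes with a mean-variance trend, two-sided), with Benjamini-Hochberg adjustment over all genes at 0.05. Fits were made for each day (6 samples), for all days with day as a term, and for differences between days. The script was tested on simulated data. Tables were made with Python 3.11.15, pandas 2.3.3, and numpy 2.4.6, and figures with matplotlib 3.10.9. The 2 sides come from 1 mouse, and residuals of the sides correlated in each of the 9 mice (0.131 to 0.511), so the mouse as a block was an alternative fit. Columns of day 7 were tied to mice by library number, since column names and titles differed.

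Depth was estimated from steps in low values, of which 68.3% to 84.4% lay within 0.1 of a whole read, where an even spread gives 20.0%. A read of a 4 kb transcript was worth 0.0081 to 0.0288 TPM, and this covers counting error only. No depth was given in the table itself.

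The genes and lists were chosen with earlier results of these data known. Named genes are those that passed a test between sides or a difference between days, the 2 most abundant of each subfamily with a mean of at least 1 TPM (otherwise the highest), the 5 largest rises and falls per day that went the same way in 3 mice, those the study displayed, and those with a textbook role in muscle, nerve, or vessels. Other genes were named after their values were seen. Counts cover all members, and a few members are not reported here by name or in figures. Alternatives were pseudocounts of 0.1 and 1, other filters, scalings, and fits, and leaving out each mouse. Sequences are RefSeq promoters of GRCm38.p6.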

Additional observations from a re-analysis of the deposited data

Results flagged for a closer look

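Kcnj16, an inward rectifier subunit named after its values were seen, was lower on the denervated side in 3 of 3 mice at day 1 and higher in 3 of 3 mice at days 3 and 7. Its mean difference between the sides on log2(TPM + 0.5) was 0.759 higher at day 3 than at day 1 and 0.934 higher at day 7 than at day 1. These differences were not tested, because Kcnj16 was under the minimum for testing. The sides of mouse 1 at day 1 were nearly the same, so its direction there is not secure. It had 0.590, 0.646, and 0.964 TPM on the sham side and 0.578, 0.340, and 0.210 TPM on the denervated side at day 1, and 0.701, 0.495, and 0.576 TPM against 0.810, 0.942, and 1.17 TPM at day 7.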

How the results depend on the processing

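The number of potassium channel genes that passed over all days was 3 (3.1%). Here and below, brackets hold the share of all genes tested that passed in the same fit. The number was 1 with a minimum of 5 TPM (3.51%) and 2 on the scale of the muscle markers (0.996%). It was 4 with a minimum above 0 TPM (2.14%), with no minimum (1.3%), and with the mouse as a block (3.5%). On the muscle scale with the block it was 4, 1 of them higher (3.81%). It was 3 to 4 when a mouse was left out (1.54% to 4.68%). At day 3 it was 2 (1.45%). It was 1 with a minimum above 0 TPM (0.824%), with no minimum (0.526%), and with no mean-variance trend (1.12%). It was also 1 with the most abundant transcript (1.1%) and on the scale of the muscle markers (1.96%). It was 4 with the mouse as a block (1.45%), with the block in a single fit of 18 samples (3.42%), and on the muscle scale with the block (4.41%). Whichever mouse was left out, it was 0 (0.0% to 0.881%). At day 7 it was 3 (1.53%), 6 on the muscle scale (9.83%), and 7 on that scale with the block (22.7%). It was 1 in a single fit of 18 samples without the block (1.44%) or with it (2.47%), and 0 to 1 without a mouse (0.0065% to 0.84%). For the difference of effects between days 3 and 1 it was 0 (0.122%), against 1 with the block (0.461%). Without a mouse it was 0 to 2 (0.0407% to 1.0%). For that between days 7 and 1 it was 0 (0.163%), against 1 (Kcne1l) with a minimum above 0 TPM (0.158%) or with no minimum (0.111%). On the sham side between days 7 and 1 it was 0 (0.976%), and 0 to 2 without a mouse (0.0% to 2.38%). On the denervated side it was 5 between days 3 and 1 (10.3%), against 1 with a minimum of 5 TPM (12.6%) and 3 with no minimum (3.74%). It was 3 at equal sums (7.04%), 0 on the muscle scale (0.348%), and 0 to 4 without a mouse (2.84% to 10.4%). Between days 7 and 3 it was 0, against 1 with a minimum above 0 TPM or with no minimum (Kcne1l). It was 3 there without replicate 1 of day 1. Between days 7 and 1 it was 13 (20.8%), against 4 with a minimum of 5 TPM (23.6%) and 0 on the muscle scale (0.88%). It was 16 with a minimum above 0 TPM (14.1%) or with no minimum (9.32%), and 10 at equal sums (21.1%). Without a mouse of day 1 or 7 it was 8 to 11 (10.4% to 21.1%). Without a mouse of day 3 it was 12 to 14 (17.6% to 20.7%). Of single transcripts 1 passed, at day 7 (0.387%), and 0 did with the block, where 0 of all 33372 transcripts tested at that day passed. The causes were not tested, except that higher minimums leave fewer genes to test. Of these counts 39 moved and 175 did not. On the muscle scale Kcnab2 and Kcnj2, called higher on the denervated side between days 7 and 1, changed sign to -0.04 and -0.11, and no other called potassium channel gene changed sign in the alternatives run. The fits with the block in 18 samples and on the muscle scale with the block were chosen after seeing the data. With 3 mice per day, leaving out 1 leaves 2, and a call lost there does not show that the sides were alike. Depth limits low genes most, Kcne1l among them, with about 5 reads in the median sample.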
